A study of Homo sapiens with 9 samples.

Results

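The mitochondrial SLC25 carrier genes were taken as all genes whose name on the array is SLC25A followed by a number. The array held 43 such genes of 31033 gene names, read by 69 probes of 50238. Of the 43 genes, 38 were well above background on all 9 arrays, SLC25A18 and SLC25A21 on 0 arrays, and SLC25A2, SLC25A30 and SLC25A31 on some arrays only. The family was picked out because SLC25A10 was among the largest decreases after Lamin A/C Kd, so the values of SLC25A10 in that comparison are given as a description without a test.

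The arrays came from DLD1, an established line of human colorectal cancer cells, with 1 Agilent single-color array per culture. The cultures were 3 Control cultures without siRNA, 3 with knockdown (Kd) of Lamin A/C and 3 of Lamin B2, each with 100 nM siRNA against that lamin for 48 h. Controls received no siRNA and no array came from cells with a control siRNA, so that transfection and loss of a lamin cannot be told apart in any comparison with Control. Lamin networks line the nuclear envelope from within. Lamin A and Lamin C, the A-type lamins, are both products of LMNA, and Lamin B2 is the product of LMNB2.

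Most SLC25 proteins, though not all, are carriers of the inner mitochondrial membrane. These carriers are encoded in the nucleus and made in the cytosol. They are inserted through the outer membrane translocase, small chaperones of the intermembrane space and the carrier translocase of the inner membrane. Each of them exchanges or transports a narrow set of solutes, such as ADP and ATP, phosphate, citric acid cycle intermediates, amino acids, nucleotides and cofactors. In this way they connect the metabolism of the matrix with that of the cytosol.

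A value on an array is the hybridization of labeled RNA to a probe of 60 bases. The last 30 bases of the probes are shown for SLC25A10, the members called in Lamin A/C Kd and SLC25A40, whose probes differed, because these are the sequences the measurements rest on. SLC25A10, SLC25A15, SLC25A24 and SLC25A16 had 1 probe each on the array, while SLC25A25 had 2 and SLC25A40 had 3.
SLC25A10: cttcgtgtctgctgagagcaaccagacctt
SLC25A15: gctattatggctggtcttccatttgctttt
SLC25A24: gttgaagatagtatatttctggtagtactg
SLC25A16: cactggataataggaaaaacacttctttcc
SLC25A25, brightest probe: aattggacgttagaagttgtcatttaaagc
SLC25A25, other probe: gctgtctcgagccaagctgtgaaaacccta
SLC25A40, brightest probe: aatgtttttcaccattattctctcacaatg
SLC25A40, second probe: gccaacatttatgatcaactttacttcagg
SLC25A40, probe from another sequence record: ttttgggatatggaaaagtttattgtatcc
No probe of a member shared more than 11 consecutive bases with a probe of another member. The files name probes by gene and list no genome position for these, and whether the siRNAs match any of these transcripts was not tested.

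On brightest probes, SLC25A15 had the largest decrease among the members tested in Lamin A/C Kd. Its promoter is given as the 250 bases before the RefSeq start (GRCh38.p14). Capitals mark matches to the GC box GGGCGG, on either strand.
SLC25A15, chr13:40789361-40789610, plus strand: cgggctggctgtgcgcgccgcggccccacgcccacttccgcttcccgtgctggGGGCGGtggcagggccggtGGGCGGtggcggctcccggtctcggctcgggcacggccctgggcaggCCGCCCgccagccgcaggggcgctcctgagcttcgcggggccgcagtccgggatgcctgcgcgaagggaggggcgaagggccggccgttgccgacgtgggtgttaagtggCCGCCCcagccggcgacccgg
The SLC25A15 window held 4 GC boxes and 79.6% G and C. The reference table held 45 windows for 35 of the SLC25 genes, some with several starts. SLC25A6 was listed on both X and Y with the same sequence, and both windows are counted. A GC box lay in 29 of the 45 (64.4%) and in 42.6% of all 35116 windows, the CCAAT box (CCAAT) in 21 (46.7%) and in 32% of all, and the E-box CACGTG in 7 (15.6%) and in 6.34% of all. The palindromic motif of the nuclear respiratory factor NRF1 lay in 0 of the 45 windows and in 1.03% of all. Motifs were searched on both strands, and a match is a description of the letters only.

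Values are given as log2 intensity minus the median of the array, so 0 is the median spot and 1 unit is a 2-fold difference within a probe. The median intensity was between 71.1 and 82.6 on the Control arrays, between 63.0 and 70.8 in Lamin A/C Kd and between 64.9 and 81.8 in Lamin B2 Kd. Spots well above background made up 65.6 to 74.1% of an array, and 0 were saturated. Lamin B2 Kd replicate 3 stood apart: it lay alone on another slide, so slide and array cannot be told apart, and it had the lowest value of the Lamin B2 Kd group for LMNA, SLC25A10, SLC25A15 and SLC25A41. Values without it are given beside a number of the results that rest on it.

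The knockdowns showed in the targeted transcripts. LMNA was at 8.79, 8.80 and 8.91 in Control and at 4.85, 5.14 and 5.03 in Lamin A/C Kd, which leaves 7.04% of the Control signal (log2 fold change −3.83, limma adjusted p = 0.000222). LMNB2 was at 5.44, 5.52 and 5.74 in Control and at 3.1, 3.48 and 3.15 in Lamin B2 Kd, which leaves 20.0% (log2 fold change −2.32, limma adjusted p = 0.000504, and −2.28 without Lamin B2 Kd replicate 3). The groups did not overlap in either case. Lamins that were not targeted also had lower signal in Lamin A/C Kd, without a call. LMNB1 was at −0.99 (limma adjusted p = 0.167, called in 5 of 22 other fits) and LMNB2 at −0.36 (limma adjusted p = 0.152). Both had all Lamin A/C Kd arrays below all Control arrays, as had 25.4% of all genes tested. In Lamin B2 Kd LMNB1 was at −0.64 (limma adjusted p = 0.346) and LMNA at −0.29 (limma adjusted p = 0.428). Both values rest on Lamin B2 Kd replicate 3. Without it LMNB1 was at −0.19. LMNA was at 8.84, 8.83 and 7.97 on the Lamin B2 Kd arrays, with only replicate 3 below the Control range. Of 9 markers of colon epithelium, 8 were above background on all 9 arrays, among them the keratins KRT8, KRT18, KRT19 and KRT20, and CDX1 on 7. VIL1, the brush border protein villin, fell in Lamin B2 Kd (log2 fold change −1.06, limma adjusted p = 0.033), a value not computed without Lamin B2 Kd replicate 3. VIL1 was the 1 marker of the 9 that fell, beside 4.03% of all genes. Of the 9, 5 had a positive sign and 4 a negative one, with a median of 0.10. The fibroblast markers COL1A1, COL1A2, COL3A1 and DCN were each above background on some arrays but not on all, and only DCN could be tested. Of the muscle markers, MYH7 was above background on 0 arrays and DES on some, and neither could be tested. The leukocyte markers CD3E, CD79A and CD14 and the endothelial markers PECAM1 and VWF were above background on all arrays, and no marker of these lists was called between a knockdown and Control. VWF was higher by 0.50 in Lamin A/C Kd than in Lamin B2 Kd (limma adjusted p = 0.0442), where 11.2% of all genes were called higher. PECAM1, the other endothelial marker tested, had a difference of −0.22 and was not called. The pan-leukocyte marker PTPRC was above background on 2 of 9 arrays.

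SLC25A10, on chromosome 17, encodes the dicarboxylate carrier, which exchanges malate or succinate for phosphate across the inner membrane. Its signal was 4.32, 4.35 and 4.46 in Control, 1.55, 2.05 and 1.75 in Lamin A/C Kd, against 4.09, 4.31 and 3.37 in Lamin B2 Kd. All Lamin A/C Kd arrays lay far below all others, and the lowest Lamin B2 Kd value belonged to replicate 3. The means were 4.38 ± 0.07 (SD, n = 3) for Control and 1.78 ± 0.25 (SD, n = 3) for the Lamin A/C Kd arrays, a log2 difference of −2.60 with a standard error of 0.23. This corresponds to 16.5% of the Control signal and was the number 6 decrease among 21799 genes tested, a rank that the choice of the gene fixed. The difference stayed between −2.73 and −2.48 when any single array was left out, and the gene was well above background on all 9 arrays. In these whole-culture RNA samples, fewer cells that express a gene and less RNA per cell cannot be told apart.

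In Lamin B2 Kd SLC25A10 was at 3.92 ± 0.49 (SD, n = 3). The log2 fold change against Control was −0.46 (95% interval −0.98 to 0.07, limma adjusted p = 0.264), and −0.18 without Lamin B2 Kd replicate 3. Both comparisons share the Control arrays, on which the gene was chosen, so the test in Lamin B2 Kd is not independent of that choice. Between the knockdowns, SLC25A10 was lower in Lamin A/C Kd by 2.14 on the log2 scale, given here without a test since the gene was chosen on these arrays.

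**Figure D1:**
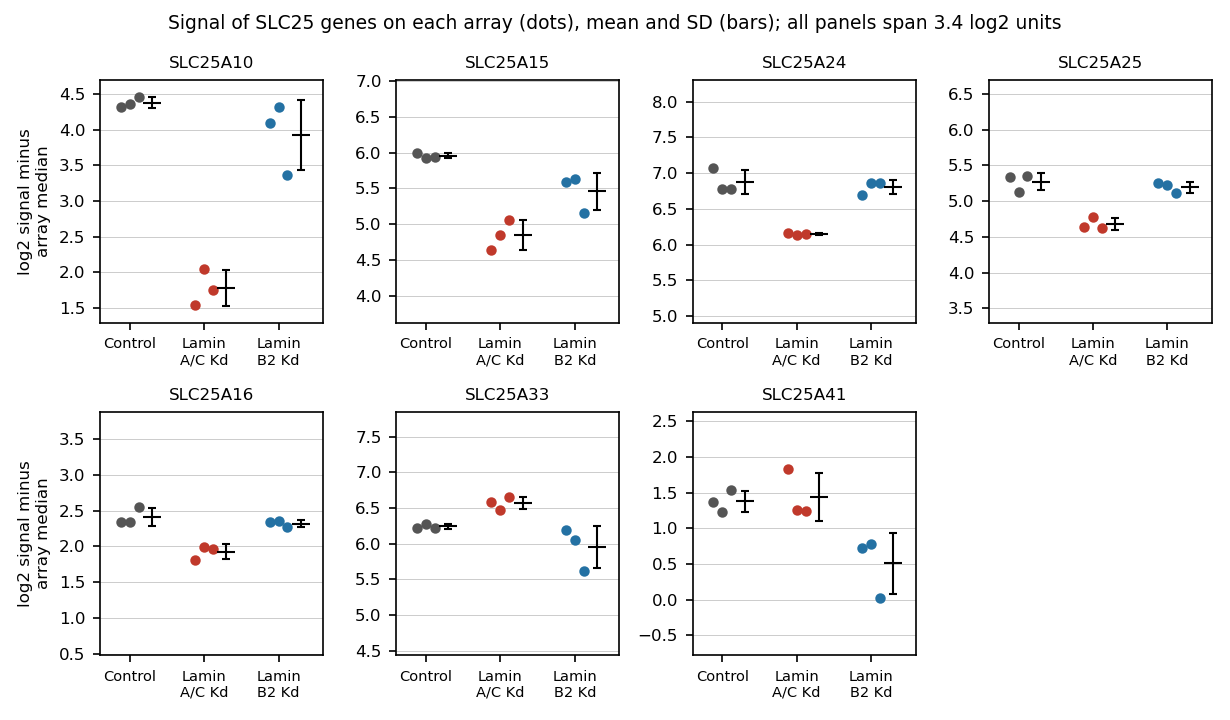
Log2 signal minus the array median (y axis) of 7 SLC25 genes on each of the 9 arrays (dots, 3 per group), with the mean and SD of each group beside them. SLC25A10 lay between 1.55 and 2.05 in Lamin A/C Kd against 4.32 to 4.46 in Control, and SLC25A15, SLC25A24, SLC25A25 and SLC25A16 were also lower there than on every Control array.

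Whether other carriers changed with loss of Lamin A/C was asked for the remaining 37 members that passed the filter on low signal. Of these, 4 fell and 0 rose: SLC25A15, SLC25A24, SLC25A25 and SLC25A16 (limma, Benjamini-Hochberg adjusted over all probes). Over all genes tested, 9.01% were called, 5.85% lower and 3.16% higher, so the number of members called is near the background share. The median log2 fold change was −0.10 for the 37 members and −0.04 for all genes. After a shift by the 75th percentile or quantile normalization 6 members were called, 4 lower and 2 higher, since SLC25A20 and SLC25A33 were added. Lamin B2 Kd replicate 3 enters this comparison through the shared estimate of the spread, and without it 7 members were called, 5 lower and 2 higher. Without Control replicate 1 or 3, or Lamin A/C Kd replicate 1 or 3, 2 members were called, SLC25A15 and SLC25A24. The share of all genes called in these other fits is not given. Their counts therefore do not show whether the members or all genes moved. Among the 37 members, the Lamin A/C Kd and Control arrays did not overlap for 13 that were lower and 6 that were higher, beside 25.4% and 15.6% of all genes. At an unadjusted p under 0.05, 7 of the 37 passed (23.2% of all genes), and 1 did at 2-fold or more with an unadjusted p under 0.05, SLC25A15 (2.2%).

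Among the amino acid carriers, 1 of 7 tested members fell, beside the 5.85% of all genes. SLC25A15, on chromosome 13, encodes the ornithine carrier, which links the matrix and cytosolic steps of the urea cycle. Its signal was 6.0, 5.93 and 5.95 in Control, 4.64, 4.85 and 5.06 in Lamin A/C Kd, against 5.59, 5.63 and 5.16 in Lamin B2 Kd. The highest Lamin A/C Kd array was below the lowest array of each other group. The log2 fold change in Lamin A/C Kd was −1.11 (standard error 0.16, limma adjusted p = 0.00541), 46.4% of the Control signal, and it was called in 22 of 22 other fits. SLC25A44, a carrier of branched-chain amino acids, was at −0.52 (limma adjusted p = 0.10) and was called in neither knockdown. The aspartate/glutamate carriers SLC25A12 and SLC25A13 were at −0.20 and 0.06, not called.

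Among carriers of adenine nucleotides and phosphate, 2 of 8 tested members fell (5.85% of all genes), both from the branch that exchanges ATP-Mg for phosphate and is regulated by calcium. SLC25A24, on chromosome 1, was at 7.07, 6.78 and 6.77 in Control, 6.17, 6.14 and 6.15 in Lamin A/C Kd, against 6.69, 6.86 and 6.86 in Lamin B2 Kd. The Lamin A/C Kd arrays lay close together and below all 6 others. Its log2 fold change was −0.72 (standard error 0.12, limma adjusted p = 0.00882), 60.6% of the Control signal, and it was called in 22 of 22 other fits. SLC25A25, on chromosome 9, was at 5.34, 5.13 and 5.35 in Control, 4.63, 4.78 and 4.63 in Lamin A/C Kd, against 5.25, 5.23 and 5.11 in Lamin B2 Kd on its brightest probe. Here too the Lamin A/C Kd arrays lay below the 6 others. The log2 fold change was −0.59 (limma adjusted p = 0.0150), called in 17 of 22 other fits and lost without Control replicate 1 or 3 or Lamin A/C Kd replicate 1 or 3.

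The remaining calcium-regulated member, SLC25A23, was not called and lay on the other side of 0, at 0.19 (limma adjusted p = 0.559). The major ADP/ATP carriers SLC25A4, SLC25A5 and SLC25A6 and the phosphate carrier SLC25A3 were between −0.20 and −0.09 and not called. SLC25A31, an ADP/ATP carrier of the germ line, was above background on 1 of 9 arrays and not tested.

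Among carriers of cofactors and nucleotides, 1 of 9 members fell, again beside 5.85% of all genes. SLC25A16, on chromosome 10, is a carrier implicated in the supply of coenzyme A to the matrix. It was at 2.35, 2.34 and 2.55 in Control, 1.80, 2.0 and 1.97 in Lamin A/C Kd, against 2.34, 2.35 and 2.27 in Lamin B2 Kd, so that the Lamin A/C Kd arrays did not overlap with the others. The log2 fold change was −0.49 (limma adjusted p = 0.0310), called in 13 of 22 other fits and lost without any 1 Control or Lamin A/C Kd array (adjusted p between 0.068 and 0.136). SLC25A20, the carnitine/acylcarnitine carrier of fatty acid oxidation, was at 0.41 (limma adjusted p = 0.119). SLC25A33, a pyrimidine nucleotide carrier, was at 0.33 (limma adjusted p = 0.225). Each had all Lamin A/C Kd arrays above all Control arrays, as did 15.6% of all genes tested.

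Of the other carriers of di- and tricarboxylates, the citrate carrier SLC25A1 was at −0.14 and the 2-oxoglutarate/malate carrier SLC25A11 at −0.04, not called. The 4 carriers of iron and glutathione (SLC25A28, SLC25A37, SLC25A39 and SLC25A40), the 2 tested relatives of the uncoupling proteins and the 5 members of less known function gave 0 calls on their brightest probes. Their log2 fold changes in Lamin A/C Kd lay between −0.38 and 0.19. These 0 calls stand beside 9.01% of all genes called in Lamin A/C Kd.

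**Figure D2:**
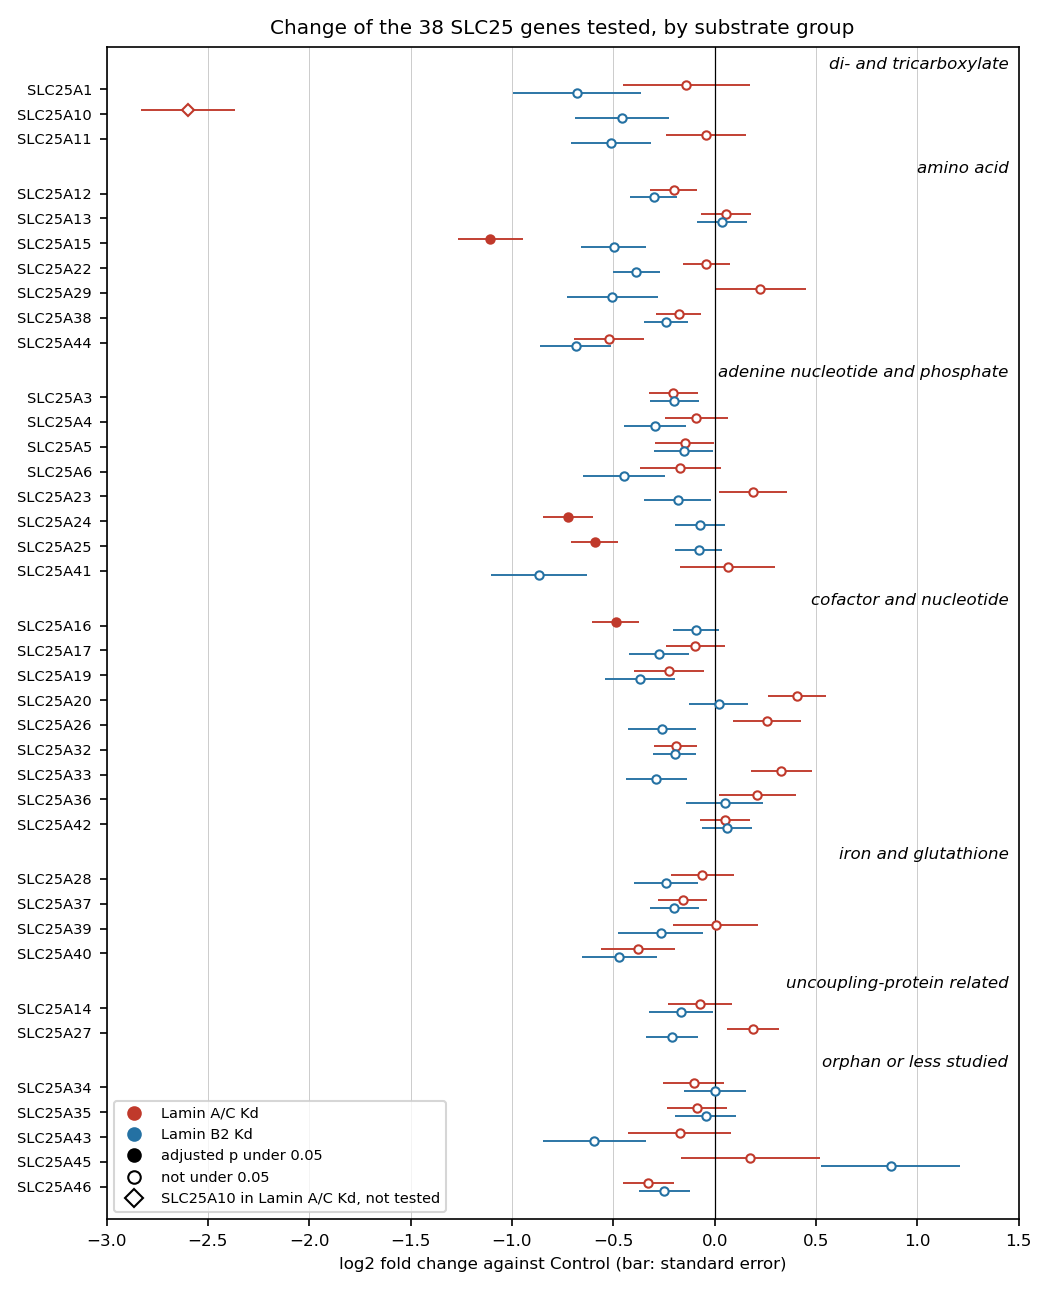
Log2 fold change against Control (x axis, with standard error) of the 38 SLC25 genes tested, by substrate group, for Lamin A/C Kd (red) and for Lamin B2 Kd (blue). Filled points have a limma adjusted p under 0.05: 4 in Lamin A/C Kd, against 0 in Lamin B2 Kd. The open diamond at −2.60 is SLC25A10, for which no test is given in Lamin A/C Kd.

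In Lamin B2 Kd, 0 of the 38 members were called by limma with the adjusted p, while 4.48% of all genes were, 4.03% lower and 0.458% higher. With the unadjusted p under 0.05, 9 members passed, which is 9 of 38 beside 24.5% of all genes. These were SLC25A11, SLC25A12, SLC25A15, SLC25A22, SLC25A40, SLC25A41, SLC25A43 and SLC25A44, lower, and SLC25A45, higher. At 2-fold or more with an unadjusted p under 0.05, 0 members passed, beside 2.04% of all genes. The lowest log2 fold change was that of SLC25A41 at −0.87 (limma adjusted p = 0.0737), a relative of the ATP-Mg carriers that lacks the calcium-binding part, and the highest that of SLC25A45 at 0.87 (limma adjusted p = 0.173). Without Lamin B2 Kd replicate 3 SLC25A41 was at −0.62 and SLC25A15 at −0.35. SLC25A11 was at 4.88, 4.92 and 4.17 in Lamin B2 Kd (Control mean 5.17) and SLC25A43 at 2.20, 1.76 and 1.03 (Control mean 2.26). Both were lowest on replicate 3, and their changes without it are not given. SLC25A45 was at 0.18, 0.39 and 1.72 in Lamin B2 Kd, the highest on replicate 3, and between −0.15 and −0.08 in Control, and its other tested probe had a log2 fold change of 0.05. The members' median was −0.25 and that of all genes −0.14, and 32 of 38 members had a negative sign, as had 14734 of the 22054 genes tested. The Lamin B2 Kd and Control arrays did not overlap for 19 members that were lower and 1 that was higher, beside 27.4% and 5.6% of all genes. After a shift by the 75th percentile these medians were −0.05 and 0.05, and without Lamin B2 Kd replicate 3 they were −0.12 and −0.07. The 4 members called in Lamin A/C Kd had log2 fold changes of −0.50 (SLC25A15), −0.07 (SLC25A24), −0.08 (SLC25A25) and −0.09 (SLC25A16) here.

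The difference between the knockdowns was tested directly in the same fit. Of the 37 members without SLC25A10, 4 were lower in Lamin A/C Kd than in Lamin B2 Kd and 2 were higher, beside 15.7% called over all genes (4.53% lower and 11.2% higher). This comparison shares its 3 Lamin A/C Kd arrays with that against Control. The lower ones were SLC25A24, SLC25A15, SLC25A25 and SLC25A16, with log2 differences of −0.65, −0.61, −0.51 and −0.40. SLC25A41 was higher by 0.93 and SLC25A33 by 0.62, and neither was called against Control. The knockdown arrays did not overlap for 9 members higher and 4 lower in Lamin A/C Kd, beside 21.9% and 10.4% of all genes. At an unadjusted p under 0.05, 12 members passed (29.5% of all genes), and at 2-fold or more 0 did (4.2%). SLC25A41 was at 1.37, 1.23 and 1.53 in Control, 1.83, 1.26 and 1.23 in Lamin A/C Kd, against 0.73, 0.78 and 0.02 in Lamin B2 Kd, where replicate 3 was the lowest. SLC25A33 was at 6.23, 6.28 and 6.22 in Control, 6.59, 6.47 and 6.65 in Lamin A/C Kd, against 6.19, 6.05 and 5.62 in Lamin B2 Kd. For both genes the knockdown groups did not overlap. Without Lamin B2 Kd replicate 3 the differences were 0.68 for SLC25A41 and 0.45 for SLC25A33, and 7 members were called. Without Lamin A/C Kd replicate 1 only SLC25A24 of the 37 was called, and without Lamin A/C Kd replicate 2 or 3 the count was 2. After a shift by the 75th percentile 8 were called, 4 higher and 4 lower. For these other fits the share of all genes called is not given, so the counts do not show whether the members or all genes moved.

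Of the members, 15 had several tested probes, which could read different parts or forms of a transcript. The sign of the log2 fold change was the same on all probes of a gene for 12 of 15 when Lamin A/C Kd was compared with Control and for 11 of 15 with Lamin B2 Kd. Between the knockdowns it was the same for 8 of 15. The 3 probes of SLC25A1 lay between −0.23 and −0.14 in Lamin A/C Kd, and the 4 probes of the ADP/ATP carrier SLC25A5 between −0.24 and −0.13. For SLC25A25 the second probe, at 2.91, 2.27 and 2.56 in Control, 0.85, 1.63 and 1.12 in Lamin A/C Kd, against 1.94, 2.23 and 1.22 in Lamin B2 Kd, showed a larger decrease in Lamin A/C Kd, with a log2 fold change of −1.38 (limma adjusted p = 0.0211) beside −0.59 on the brightest. All Lamin A/C Kd arrays were below all Control arrays on both probes, while on the second probe the knockdown groups overlapped. In Lamin B2 Kd the second probe was at −0.78 (limma adjusted p = 0.158) and the brightest at −0.08, and between the knockdowns the second probe was not called (−0.60, limma adjusted p = 0.206).

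The widest spread between probes in Lamin A/C Kd was that of SLC25A40, which is linked to glutathione import into mitochondria together with SLC25A39. The gene is singled out here after its values were seen. Its brightest probe was at 3.05, 3.06 and 3.1 in Control, 2.58, 2.42 and 3.07 in Lamin A/C Kd, against 2.79, 2.67 and 2.34 in Lamin B2 Kd, with 1 Lamin A/C Kd array inside the Control range. The dimmer probe that the files tie to another sequence record (listed last above) was at 2.48, 2.30 and 2.51 in Control, 1.13, 1.02 and 1.11 in Lamin A/C Kd, against 1.92, 1.87 and 1.85 in Lamin B2 Kd. On this probe all groups were apart, Lamin A/C Kd lowest and Lamin B2 Kd between it and Control. The log2 fold change in Lamin A/C Kd was −0.38 (limma adjusted p = 0.251) on the brightest probe, −0.63 (adjusted p = 0.0393) on the second and −1.34 (adjusted p = 0.000453) on the probe from the other record. With Lamin B2 Kd that probe was at −0.55 (limma adjusted p = 0.0311). Between the knockdowns the same probe was also called, with a log2 difference of −0.79, while the brightest probe was at 0.09 (limma adjusted p = 0.775). SLC25A36, a pyrimidine nucleotide carrier, had 1 called probe in Lamin A/C Kd at −0.47 (limma adjusted p = 0.0494), while its brightest probe was at 0.21.

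**Figure D3:**
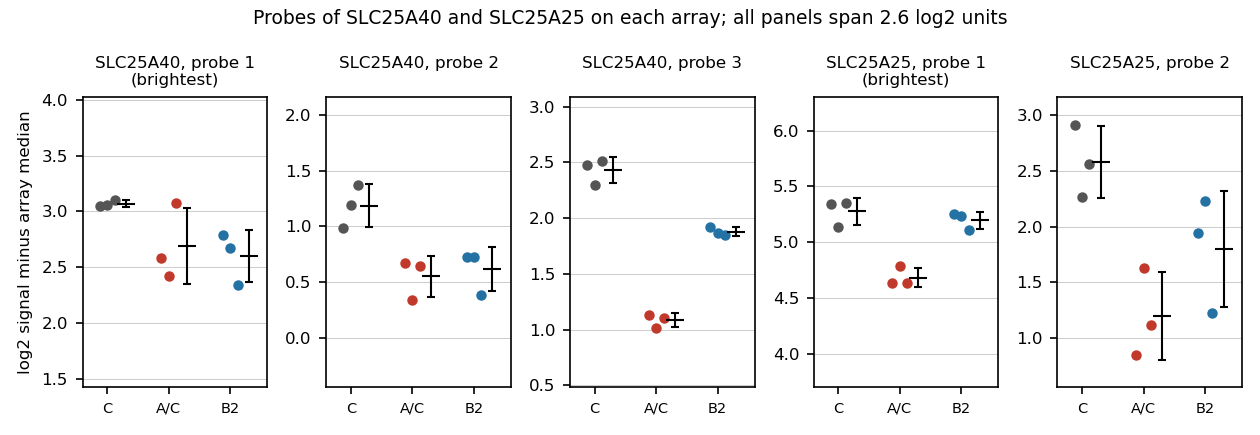
Log2 signal minus the array median (y axis) of the 3 probes of SLC25A40 and the 2 probes of SLC25A25 on each array (dots; C, Control; A/C, Lamin A/C Kd; B2, Lamin B2 Kd), with mean and SD. The SLC25A40 probe from the other record (probe 3) lay between 1.02 and 1.13 in Lamin A/C Kd, away from both other groups, while on the brightest probe 1 Lamin A/C Kd array reached 3.07.

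The genes beside SLC25A10 on chromosome 17 were taken next. Of the 5 protein-coding neighbors on each side in the reference table, 8 were on the array and 6 could be tested in Lamin A/C Kd. Of these 1 rose and 0 fell, beside 3.16% and 5.85% of all genes. ARL16, a small GTPase gene, was higher by 0.54 on the log2 scale (limma adjusted p = 0.0204) and was called in 13 of 22 other fits. MRPL12, which encodes a protein of the mitochondrial ribosome and is the next gene on one side of SLC25A10, was at 0.14, and HGS, CCDC137, P4HB and ARHGDIA were between −0.55 and −0.09, not called. For HGS, CCDC137 and ARHGDIA, 3 of the 6, all Lamin A/C Kd arrays lay below all Control arrays on the brightest probe, beside 25.4% of all genes. On its other tested probes ARHGDIA was at 0.003 and 0.06, with overlapping groups, and in Lamin B2 Kd at −0.18 and −0.12 beside −0.80 on the brightest. The other probes of HGS were between −0.38 and −0.29 in Lamin A/C Kd. GCGR, the glucagon receptor gene on the other side, was above background on 2 Control arrays, 1 of Lamin A/C Kd and 3 of Lamin B2 Kd. Of the 6 neighbors above background on all arrays, 0 were called in Lamin B2 Kd by limma with the adjusted p (4.48% of all genes), and CCDC137, P4HB and ARHGDIA passed the unadjusted p under 0.05 (24.5%). Without Lamin B2 Kd replicate 3 CCDC137 was called (−0.62, limma adjusted p = 0.0253). Between the knockdowns ARL16 was higher in Lamin A/C Kd by 0.46 (limma adjusted p = 0.0253).

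Carriers reach the inner membrane through an import machinery, read here by 13 genes. Of these, 3 fell in Lamin B2 Kd, beside 4.03% of all genes. TOMM22, the receptor subunit that organizes the outer membrane translocase, was at 7.63, 7.66 and 7.87 in Control, 7.36, 7.44 and 7.56 in Lamin A/C Kd, against 6.21, 6.10 and 5.65 in Lamin B2 Kd. All Lamin B2 Kd arrays lay over 1 unit below the others. Its log2 fold change was −1.73 (limma adjusted p = 0.00422), 30.1% of the Control signal, and −1.56 without Lamin B2 Kd replicate 3. TIMM13, an intermembrane space chaperone, was lower by 0.92 (limma adjusted p = 0.0359) and AGK, a subunit of the carrier translocase, by 0.71 (limma adjusted p = 0.0346). The values without Lamin B2 Kd replicate 3 were −0.67 and −0.61, both called, but over all alternatives TIMM13 was called in 11 of 22 other fits (adjusted p up to 0.147) and AGK in 10 of 22 (up to 0.156). TOMM22 was called in 21 of 22. In Lamin A/C Kd 1 of the 13 fell, beside 5.85% of all genes: TOMM70A, which encodes a receptor for carrier precursors (log2 fold change −0.47, limma adjusted p = 0.0387). Between the knockdowns TOMM22, TIMM13, AGK and C19orf52 (TIMM29) were higher in Lamin A/C Kd, 4 of 13 beside 11.2% of all genes, and 0 of 13 were lower, beside 4.53%.

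Of 39 enzymes that make or use the carried metabolites, 3 fell and 0 rose in each knockdown, a share near that of all genes that fell, 5.85% for Lamin A/C Kd against 4.03% for Lamin B2 Kd. In Lamin A/C Kd these were IDH3A, the catalytic subunit of the NAD-dependent isocitrate dehydrogenase of the citric acid cycle, at −0.96 (limma adjusted p = 0.00451), ASS1, the urea cycle enzyme that uses citrulline, at −0.60 (limma adjusted p = 0.0387), and SDHB of succinate dehydrogenase at −0.56 (limma adjusted p = 0.0303). After Lamin B2 Kd these were the NADP-dependent isocitrate dehydrogenases IDH2, mitochondrial, at −1.30 (limma adjusted p = 0.0196) and IDH1, cytosolic, at −0.53 (limma adjusted p = 0.0462), and PCK2, the mitochondrial phosphoenolpyruvate carboxykinase, at −0.87 (limma adjusted p = 0.0244). IDH2 was at 5.27, 5.41 and 5.66 in Control, 5.38, 5.91 and 5.46 in Lamin A/C Kd, against 4.19, 4.5 and 3.75 in Lamin B2 Kd, where all arrays were below all others. Without Lamin B2 Kd replicate 3 the changes of IDH2 and PCK2 were −1.10 and −0.69, both called, while that of IDH1 was not computed. Against Control, IDH3A was called in 22 of 22 other fits, IDH2 in 15 of 22, PCK2 in 14 of 22 and ASS1 in 11 of 22 (adjusted p up to 0.153). The direct test between knockdowns called 6 of the 39 higher and 2 lower in Lamin A/C Kd, beside 11.2% and 4.53% of all genes. It called CPT2, ME3 and TST, which encodes the sulfur transferase rhodanese (0.91, limma adjusted p = 0.00487, called in 22 of 22 other fits), and IDH1, IDH2 and PCK2 higher in Lamin A/C Kd, by 0.95, 1.44 and 1.36 (with replicate 3 of Lamin B2 Kd left out, 0.87, 1.24 and 1.18), and SUCLG1 and IDH3A lower, the latter by 0.48.

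Of 24 other mitochondrial transporters and family members under other names, 22 could be tested, and 1 rose and 2 fell in Lamin A/C Kd, beside 3.16% and 5.85% of all genes. The sideroflexin SFXN5 rose (log2 fold change 0.62, limma adjusted p = 0.0293), called in 12 of 22 other fits, and the mean of its probes was at 0.19 (adjusted p = 0.533). BRP44L (MPC1), a subunit of the mitochondrial pyruvate carrier, and CCDC109A (MCU), the calcium uniporter, fell by 0.49 (limma adjusted p = 0.0302) and 0.55 (limma adjusted p = 0.0465). With Lamin B2 Kd 1 of the 22 fell, beside 4.03% of all genes, the sideroflexin SFXN2 (log2 fold change −0.73, limma adjusted p = 0.0388), a call lost without Lamin B2 Kd replicate 3 (−0.74, adjusted p = 0.0520) and held in 7 of 22 other fits. Between the knockdowns 2 of the 22 were higher in Lamin A/C Kd and 2 lower, beside 11.2% and 4.53% of all genes. SFXN2 was higher by 1.12 (called in 22 of 22 other fits) and SFXN5 by 0.72 (21 of 22, all but the mean of its probes), while MCART1 and MCART2, family members under other names, had differences of −0.37 and −0.45. Among 12 regulators of mitochondrial genes, ESRRA, the nuclear receptor ERR alpha, fell in Lamin A/C Kd. It was at 6.63, 6.72 and 6.96 in Control, 5.57, 6.10 and 5.77 in Lamin A/C Kd, against 6.41, 6.85 and 6.18 in Lamin B2 Kd, with a log2 fold change of −0.96 in Lamin A/C Kd (limma adjusted p = 0.0203), called in 14 of 22 other fits (adjusted p up to 0.0936). It was the 1 regulator of 12 called there, beside 9.01% of all genes. In Lamin B2 Kd 0 of 12 regulators were called by limma with the adjusted p (4.48% of all genes) and 1 passed the unadjusted p under 0.05 (24.5%). Between the knockdowns 1 of 12, MYC, was called higher in Lamin A/C Kd, beside 11.2% of all genes. None was called lower (4.53% of all genes), so ESRRA was not called there.

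**Figure D4:**
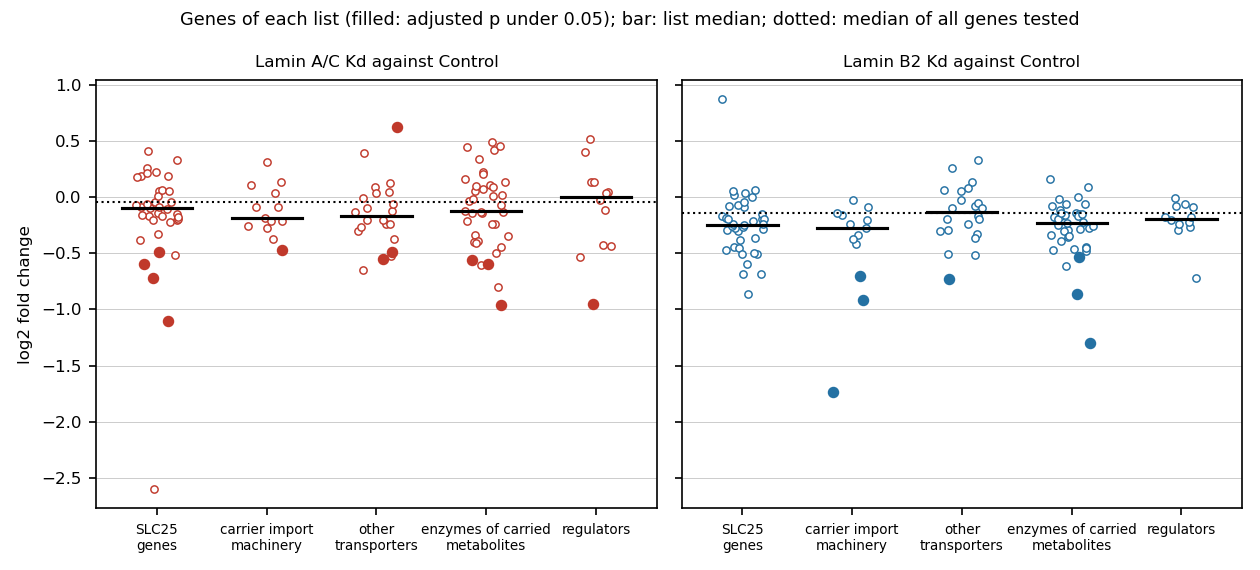
Log2 fold change against Control (y axis) of the tested SLC25 genes and of 4 related gene lists in Lamin A/C Kd (left) and Lamin B2 Kd (right), 1 dot per gene, filled where the limma adjusted p was under 0.05 (SLC25A10 in Lamin A/C Kd is drawn without fill). Bars are list medians, −0.10 for SLC25 genes on the left and −0.25 on the right, and the dotted line is the median of all genes tested.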

How the data were processed

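Single-color Agilent arrays of 9 DLD1 cultures (3 Control, 3 Lamin A/C Kd, 3 Lamin B2 Kd), given as biological replicates, were used. The authors deposited Feature Extraction output for each array (10.5 per the labels, 10.7.3.1 per the file headers). The deposited intensity had been background-subtracted and detrended within the array, and a flag marks spots well above background. The authors also supplied log2 signals for all arrays in a further deposited file, which had been centered by row after a 50th percentile shift. It was used as an alternative. Its Lamin B2 Kd columns were tied to the group but not to single cultures, and 11504 of its 29972 rows with values join several probes.

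The 50th percentile of each array was subtracted from log2 intensity, and spots of 1 probe were averaged, leaving out outlier spots. A probe was tested if it had values on all arrays and if, on all 3 arrays of either compared group, at least 0.5 of its spots exceeded background. All 9 arrays entered 1 limma fit (limma 3.58.1, R 4.3.3), and p values were adjusted by Benjamini-Hochberg over all probes tested. A gene takes the value of its brightest probe and was called at an adjusted p under 0.05. The study's thresholds, at least 2-fold with p under 0.05, were an alternative, read here with the unadjusted p. Further alternatives changed scaling, background correction, filter, choice of probes, blocks for replicate number and slide, array weights, moderation, groups fitted and each array in turn. The procedure was tested on simulated data. Precision is limited by 3 arrays a group.

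The members and gene lists were chosen with earlier results of these data known. By rule, values per array were given for SLC25A10 and for members called in a comparison (up to 5 in each direction), and list genes called at 1.5-fold or more were to be named. Further list genes, VIL1, VWF, SLC25A36 and SLC25A40 were named after their values were seen. The RefSeq annotation (GRCh38.p14) held all 43 members and gave chromosomes and neighbors, and promoter windows for 35 of them. Promoter sequences other than that of SLC25A15 are not reported here.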

Additional observations from a re-analysis of the deposited data

Results flagged for a closer look

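For 6 carriers the change against Control differed on the brightest probe between the knockdowns in the direct test over the 9 arrays (limma, adjusted p under 0.05). Differences are given as Lamin A/C Kd minus Lamin B2 Kd on the log2 scale. SLC25A40 was called on a dimmer probe only (−0.79). SLC25A24 differed by −0.65 (adjusted p = 0.00817), with changes against Control of −0.72 under Lamin A/C Kd but −0.07 under Lamin B2 Kd. This was called in 22 of 22 other fits. SLC25A15 differed by −0.61 (adjusted p = 0.0323), with changes of −1.11 and −0.50, and was called in 10 of 22 other fits. SLC25A25 differed by −0.51 (adjusted p = 0.0172), with −0.59 and −0.08 on its brightest probe, and was called in 17 of 22 other fits. Its other probe was at −1.38 and −0.78, and the difference between the knockdowns was not called there (−0.60, adjusted p = 0.206). SLC25A16 differed by −0.40 (adjusted p = 0.0466), with −0.49 and −0.09, and was called in 10 of 22 other fits (adjusted p up to 0.155). SLC25A41 differed by 0.93 (adjusted p = 0.0279), with 0.06 and −0.87, and SLC25A33 by 0.62 (adjusted p = 0.0255), with 0.33 and −0.29. These were called in 15 of 22 other fits each, and neither was called against Control. Without Lamin B2 Kd replicate 3 the Lamin B2 Kd changes were −0.62 for SLC25A41 and −0.12 for SLC25A33. Over all genes 15.7% were called in this comparison.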

How the results depend on the processing

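The targeted lamins kept direction and call under every alternative, and SLC25A10 in Lamin A/C Kd stayed between −2.73 and −2.38 (no test). Among the other members, 4 were called in Lamin A/C Kd. This count was 2 with the replicate block, 7 with array weights, 7 with the slide block, 1 by the 2-fold criterion (2.2% of all genes) and 7 at an unadjusted p under 0.05 (23.2%). Leaving out single arrays gave 2 to 7. In Lamin B2 Kd the count of 0 became 4 with normexp background correction (SLC25A15, SLC25A22, SLC25A41 and SLC25A44), 1 with probes above background on all 9 arrays (SLC25A44), 1 with every probe (SLC25A40) and 9 at an unadjusted p, and it was 0 whichever single array was left out. Between the knockdowns the count of 6 became 2 without the detection filter, 2 with the replicate block, 1 with only the 2 groups compared, 0 by the 2-fold criterion (4.2% of all genes), 12 at an unadjusted p (29.5%) and 2 in the authors' table, and 1 to 7 without single arrays. For alternatives other than the 2-fold criterion and the unadjusted p, the share of all genes called is not given. Those counts of members, here and above, therefore do not show whether the members or all genes moved. Of single-gene values, 1160 stayed, 176 lost the call and 25 gained it. Those that stayed were on the same side of the threshold. The exception is SLC25A10 where it had no test, counted as staying when its value moved by less than the larger group SD. Among called values 1 changed sign, SFXN5 between the knockdowns, at −0.012 as the mean of its probes. Some values that were not called also changed sign, such as SLC25A24 in Lamin B2 Kd. The cause of these shifts was not tested.

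Same-numbered replicates did not deviate together (correlations between −0.09 and 0.15), so the block is given only here. The 75th percentile shift moved the median of all genes in Lamin B2 Kd from −0.14 to 0.05. The 3 members above background on some arrays only and the 2 on no array could not be tested, and 3 arrays a group limit what can be called.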
